A study of Mus musculus with 2 samples.

Results

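The genes described here are 8 genes of Hedgehog response and of the stromal forkhead family: the receptor Ptch1, the decoy receptor Hhip, the transcription factors Gli1, Gli2 and Gli3, and the forkhead factors Foxf1, Foxf2 and Foxl1. They were chosen by name and not by a measured value, though with earlier results of these data known. All 8 were among the 16098 genes listed for both libraries of the study (16381 genes in the colon, 18262 in the small intestine). For each gene the summed UMIs (unique molecular identifiers, each standing for 1 captured transcript) and the share of cells with at least 1 UMI were taken in every cell type the authors annotated.

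The study holds 2 droplet single-cell RNA-seq libraries from healthy, untreated mice, 1 from the colon and 1 from the small intestine. Both were sorted as live cells without the epithelial protein EpCAM and without the leukocyte protein CD45, so each holds stroma: fibroblasts, endothelium and smooth muscle. The colon was digested for 60 min and the small intestine for 45 min, so tissue and digestion time cannot be told apart. With 1 library per tissue there is no replicate, no p-value is given, and every interval below is a 95% interval that covers counting error only; strain, age and number of animals are not given in the sources used here. The colon library has 6018 cells and 40684070 UMIs (median 6598 per cell), and the small intestine library 9359 cells and 58134526 UMIs (median 5943 per cell).

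The authors' labels used here are CD81- FBs (fibroblasts), CD81+ trophocytes (CD81-positive fibroblasts), SEMFs (subepithelial myofibroblasts), LECs (lymphatic endothelial cells), BECs (blood endothelial cells) and SMCs (smooth muscle cells), with the capillary, arterial and venous labels of the colon pooled as BECs. They hold 3631, 875, 1105, 217, 53 and 125 cells in the colon and 2823, 1913, 1109, 2498, 524 and 468 cells in the small intestine, in that order. Other labels, each with fewer than 50 cells and together 12 cells in the colon and 24 in the small intestine, were left out. Known markers were highest under their own label for 6 of 6 LEC, 6 of 6 SMC and 6 of 6 listed SEMF markers in both libraries, for 6 of 6 BEC markers in the colon and 4 of 6 in the small intestine, and for 4 of 6 trophocyte markers in both. Of 5 markers of CD81- FBs, 4 were highest there in the colon and 2 in the small intestine. The small intestine SMC label carried these fibroblast markers at a summed 10671 CPM (the summed UMIs of a gene scaled by all UMIs of the type), against 11995 CPM in CD81- FBs, so that label is not free of fibroblast transcripts. The libraries share 21 cell barcodes. The colon library mixes animals of different sex: 1751 cells had UMIs of Y-linked genes and none of Xist, 2700 had Xist and no Y-linked UMI, and 154 had both. In the small intestine Xist is not listed and 6896 cells had Y-linked UMIs. By these transcripts the libraries differ in sex make-up as well, which cannot be told apart from tissue where all cells are compared.

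Hedgehog ligands made by the gut epithelium reach the stroma beneath it, where the receptor Ptch1 holds back the transducer Smo until a ligand binds. Released Smo acts through the primary cilium on the Gli factors, with Gli1 an activator, Gli2 mainly an activator and Gli3 mainly a repressor. Ptch1, Gli1 and Hhip are also classic targets of the pathway, and Ptch1 and Hhip restrain it by binding the ligand. Foxf1, Foxf2 and Foxl1 are forkhead transcription factors of the gut mesenchyme, known as Hedgehog-responsive, and Foxl1 is a marker of the telocyte-like cells under the epithelium.

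The forkhead genes lie in clusters. In the GENCODE M21 annotation of GRCm38, the build called mm10 in the submitters' processing notes, Foxf1 (chr8:121084386-121088144, plus strand) and Foxl1 (chr8:121127940-121130644, plus strand) have start sites 43.554 kb apart. The long noncoding RNA gene Fendrr (chr8:121054882-121083110, minus strand) starts 1276 bp from Foxf1 and is read in the opposite direction. Foxf2 is at chr13:31625816-31631403 on the plus strand. Of the Hedgehog genes, Gli1 is at chr10:127329882-127341974 (minus strand), Gli2 at chr1:118834132-119053619 (minus), Gli3 at chr13:15463235-15730026 (plus), Ptch1 at chr13:63508328-63573598 (minus) and Hhip at chr8:79965851-80058006 (minus). The RefSeq promoter table (GRCm38.p6) matched 5 of the 8 genes by symbol: Ptch1, Hhip, Gli2, Gli3 and Foxf2. A GLI motif (GACCACCCA, either strand) was in the 250 bases before the start of 0 of these 5 genes and of 0.225% of 32851 promoters. A forkhead motif (GTAAACA, either strand) was in 0 of the 5 and in 3.17% of all promoters. The 250 bases before the Fendrr start, in the interval it shares with Foxf1, are shown because Fendrr was among the genes whose levels followed Foxf1 most closely (below). They are chr8:121083111-121083360 on the minus strand, from RefSeq, with the forkhead motif match, 129 bases before the start, in capitals.
Fendrr: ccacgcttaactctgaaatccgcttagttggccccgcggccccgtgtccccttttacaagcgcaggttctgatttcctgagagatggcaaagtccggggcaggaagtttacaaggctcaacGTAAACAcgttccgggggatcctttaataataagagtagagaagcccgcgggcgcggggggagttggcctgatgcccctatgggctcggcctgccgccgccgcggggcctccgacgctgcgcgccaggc
A match is a match of letters only, and these data do not measure binding.

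**Figure D1:**
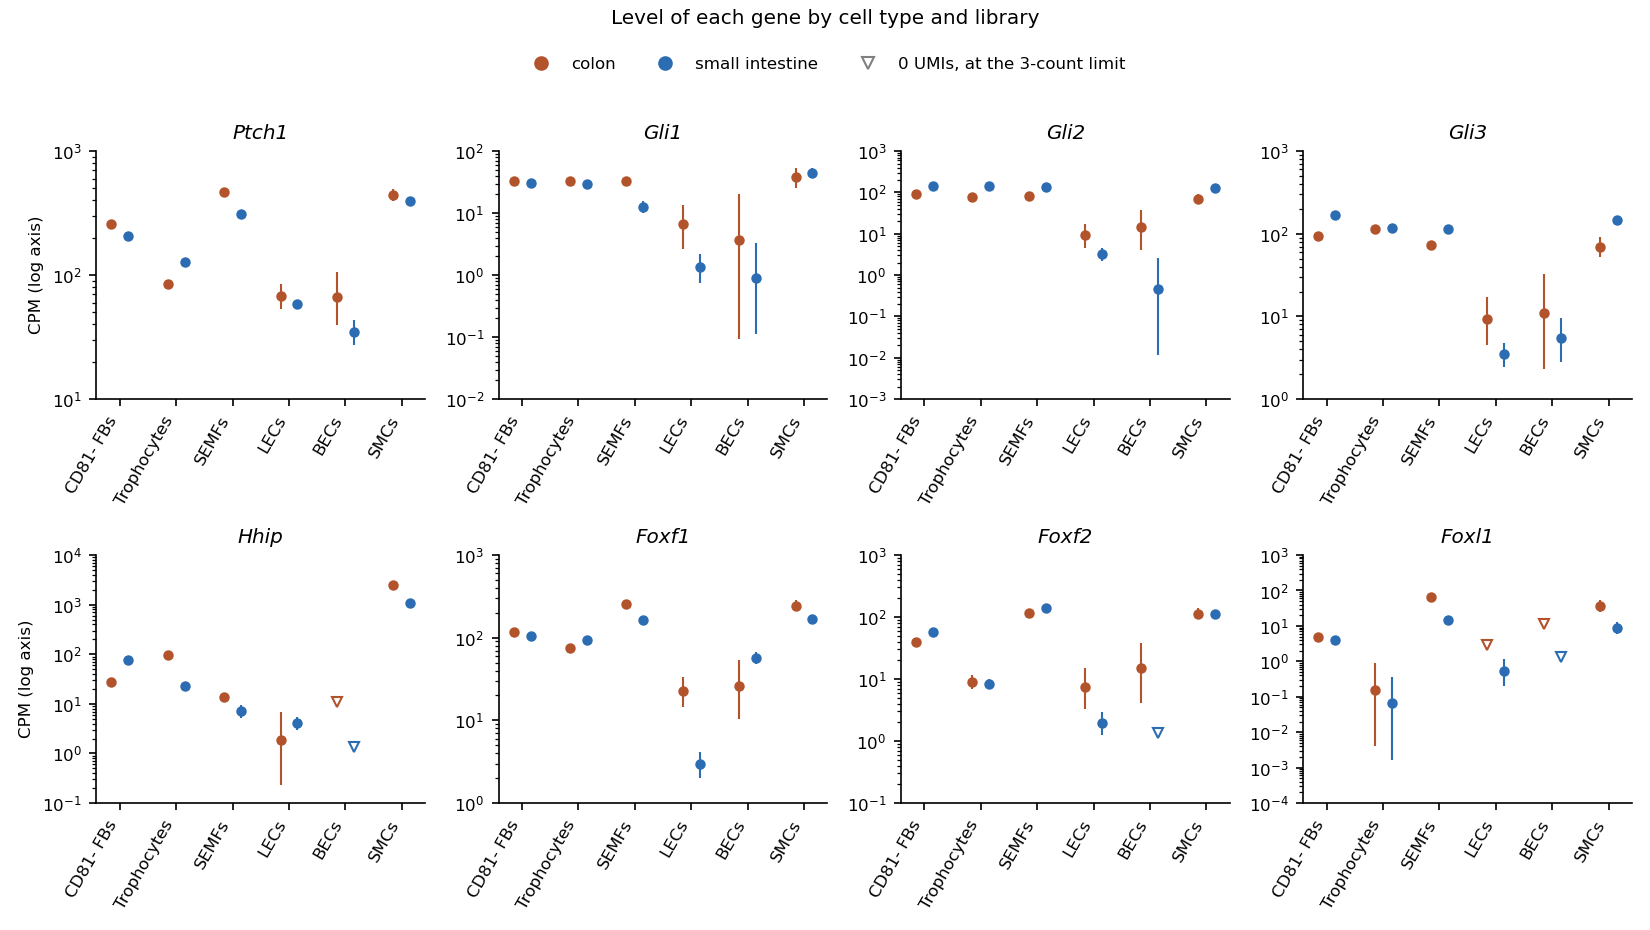
Level of each of the 8 genes (CPM, logarithmic axis) in 6 cell types of the colon and the small intestine library; points are CPM from summed UMIs, bars are exact 95% Poisson intervals, and open triangles mark 0 UMIs at the limit that 3 counts set. Hhip stands at 2522 and 1088 CPM in SMCs, Foxl1 is highest in SEMFs, and the Gli genes are low in both endothelial types.

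Ptch1 was highest in SEMFs and SMCs and lowest in endothelium in both libraries. Colon SEMFs had 472 CPM (95% exact Poisson interval 457 to 488), SMCs 442, CD81- FBs 257, trophocytes 84.2, LECs 67.6 and BECs 66.7. Small intestine SMCs had 394 CPM (372 to 418), SEMFs 309, CD81- FBs 209, trophocytes 129, LECs 58.9 and BECs 34.7. The order of types was shared apart from SEMFs and SMCs, whose colon levels did not differ beyond counting error. Neither did those of colon trophocytes, LECs and BECs from 1 to the next, while every neighbouring pair in the small intestine was separated. At least 1 Ptch1 UMI was found in 83.4% of colon SEMFs and 69.7% of small intestine SEMFs, and in 53.2% and 42.1% once each cell was thinned to 2000 UMIs.

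Hhip, which binds Hedgehog ligands at the cell surface and takes them away from Ptch1, was an SMC transcript in both tissues. Colon SMCs reached 2522 CPM (2412 to 2637), where trophocytes had 96.0, CD81- FBs 27.5, SEMFs 13.9, LECs 1.88 and BECs 0 UMIs. Small intestine SMCs reached 1088 CPM (1049 to 1127), where CD81- FBs had 77.4, trophocytes 22.6, SEMFs 7.05, LECs 4.10 and BECs 0 UMIs. The 125 colon SMCs thus held 58.3% of all Hhip UMIs of their library, and the 468 small intestine SMCs 60.5%. Hhip was detected in 92.8% of colon SMCs (exact binomial interval 86.8% to 96.7%; median depth 5526 UMIs) and 67.5% of small intestine SMCs (63.1% to 71.7%; median depth 5644.5). In LECs, which do not belong to the muscle or fibroblast lineage, the share was 0.922% in the colon (median depth 4545) and 0.6% in the small intestine (median depth 4117.5). A single cell held 42 of the 103 Hhip UMIs of colon SEMFs, whose level was 8.22 CPM without it, and a single cell held 19 of the 46 UMIs of small intestine LECs, whose level was 2.41 CPM without it.

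The order of trophocytes and CD81- FBs for Hhip was opposite in the 2 libraries. In the colon trophocytes were above CD81- FBs, and in the small intestine CD81- FBs were above trophocytes, both well beyond counting error. Counting error leaves out the clustering of UMIs in single cells. The 43 colon trophocytes with at least 5 Hhip UMIs held 54.3% of that type's Hhip UMIs. In the small intestine 82 such CD81- FBs held 40.1% and 19 such trophocytes 49.1%. The share was smaller in colon CD81- FBs. At least 1 Hhip UMI was found in 21.4% of trophocytes and 10.5% of CD81- FBs in the colon, and in 6.53% and 21.9% in the small intestine. Hhip-positive colon CD81- FBs had more summed SMC markers than Hhip-negative ones, 272 against 125 CPM (5 of 6 higher). Their trophocyte markers summed to 1157 against 899 CPM (5 of 6 higher). In small intestine CD81- FBs the SMC sums went the other way, at 614 against 671 CPM. In trophocytes they were 74.9 against 114 CPM (colon) and 83.1 against 48.8 CPM (small intestine). The part of transcripts of other cell types in Hhip here was not tested. The opposite order is taken up again below, since the difference was not of the same size in colon cells with Y-linked and with Xist transcripts.

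Gli1, the pathway's own amplifying target, was even across the mesenchymal types of the colon and uneven in the small intestine. Colon CD81- FBs had 32.5 CPM, trophocytes 32.5, SEMFs 32.9 (28.9 to 37.3) and SMCs 37.6, and no neighbouring pair of these 4 was separated. Small intestine CD81- FBs had 30.4 CPM, trophocytes 29.8, SMCs 44.9 (37.4 to 53.5) and SEMFs 12.4 (9.86 to 15.4), and both SMCs above and SEMFs below were separated from their neighbours. Gli1 was detected in 19.2% of colon SEMFs and 7.12% of small intestine SEMFs. LECs and BECs had 6.57 and 3.71 CPM (colon) and 1.34 and 0.912 CPM (small intestine).

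Gli2 and Gli3 were broad mesenchymal transcripts. Gli2 ranged from 68.6 (SMCs) to 93.5 CPM (CD81- FBs) over the 4 mesenchymal types of the colon and from 129 (SMCs) to 144 CPM (trophocytes) in the small intestine, where no neighbouring pair was separated. Gli3 ranged from 69.9 (SMCs) to 114 CPM (trophocytes) in the colon and from 114 (SEMFs) to 170 CPM (CD81- FBs) in the small intestine. Both were at most 14.8 CPM in any endothelial type. At least 1 UMI of any Gli gene was found in 64.0% to 70.2% of cells of the 4 mesenchymal types in the colon and in 68.7% to 82.1% in the small intestine.

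Foxf1 and Foxf2, paralogous factors of the gut mesenchyme, shared their peak in SEMFs and SMCs and parted in trophocytes of both libraries and in BECs of the small intestine. Foxf1 stood at 256 CPM in SEMFs (245 to 268), 245 in SMCs, 119 in CD81- FBs, 75.9 in trophocytes, 26.0 in BECs and 22.5 in LECs of the colon. In the small intestine it stood at 167 CPM in SMCs, 164 in SEMFs (154 to 174), 104 in CD81- FBs, 93.6 in trophocytes, 57.0 in BECs and 2.94 in LECs. Foxf1 of SEMFs and SMCs did not differ beyond counting error in either library.

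Foxf2 was highest in SEMFs and SMCs and low in trophocytes. It stood at 114 CPM in SEMFs, 114 in SMCs, 39.3 in CD81- FBs and 9.11 in trophocytes of the colon, and at 140, 113, 57.9 and 8.45 CPM in the small intestine. In endothelium it had 7.51 (LECs) and 14.8 CPM (BECs, 4 UMIs) in the colon, and 1.96 CPM (LECs) and 0 UMIs in 524 BECs in the small intestine, which allows up to 1.37 CPM. Foxf1 or Foxf2 was detected in 84.8% of colon SEMFs and 79.3% of small intestine SEMFs, against 41.7% and 51.9% of trophocytes.

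Foxl1 was highest in SEMFs. It stood at 66.3 CPM in colon SEMFs (60.6 to 72.4), 37.6 in SMCs (25.1 to 53.9), 4.86 in CD81- FBs and 1 UMI in 875 trophocytes, with 0 UMIs in LECs and BECs. In the small intestine it stood at 14.3 CPM in SEMFs (11.5 to 17.5), 8.91 in SMCs (5.77 to 13.2), 3.92 in CD81- FBs and 1 UMI in 1913 trophocytes, with 6 UMIs in LECs and 0 in BECs. Each step from SEMFs to SMCs to CD81- FBs was separated in both libraries. SEMFs held 76.6% of all Foxl1 UMIs of the colon and 45.4% of those of the small intestine. Foxl1 was detected in 31.7% of colon SEMFs (28.9% to 34.5%; median depth 6345) and 7.48% of small intestine SEMFs (6% to 9.19%; median depth 5510), and in 11.6% and 2.97% of the cells thinned to 2000 UMIs. The share in LECs was 0 of 217 in the colon, which allows up to 1.38%, and 0.24% in the small intestine.

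Differences between groups of cells are given as log2 ratios of CPM with an exact conditional binomial interval, and a gene is called beyond 2-fold where the groups together have at least 20 UMIs, the log2 ratio is at least 1 in size and the interval excludes 0. The share of all genes called by the same rule is given beside the counts of members and of list genes. It is large between libraries and between cell types, and a members' share near it says nothing particular to these genes.

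Against CD81- FBs of the same library, SEMFs carried more of the forkhead factors. In the colon 3 of 8 genes were beyond 2-fold, all higher in SEMFs, against 16.6% of all genes: Foxl1 by a log2 ratio of 3.77 (3.48 to 4.07), Foxf2 by 1.54 (1.41 to 1.67) and Foxf1 by 1.11 (1.02 to 1.19). In the small intestine 4 of 8 were beyond 2-fold, against 18.8% of all genes. Foxl1 and Foxf2 were higher in SEMFs there, by 1.86 (1.41 to 2.31) and 1.27 (1.15 to 1.40), and Foxf1 by 0.65 (0.54 to 0.76), within 2-fold. Gli1 and Hhip were lower in small intestine SEMFs, by log2 ratios of -1.29 (-1.64 to -0.96) and -3.46 (-3.91 to -3.03). In the colon Gli1 was level between these types at 0.02 (-0.19 to 0.23), and Hhip was at -0.99 (-1.30 to -0.69), or -1.74 (-2.14 to -1.36) without the single cell rich in Hhip. Ptch1 was higher in SEMFs within 2-fold in both, by 0.88 (0.82 to 0.94) in the colon and 0.57 (0.49 to 0.64) in the small intestine. The median over the 8 genes was 0.45 in the colon and 0.26 in the small intestine, against 0.06 and 0.17 over all genes.

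Trophocytes were lower than CD81- FBs in Ptch1 and in Foxf2 and Foxl1. In the colon 4 of 8 genes were beyond 2-fold, against 16.7% of all genes. Ptch1 was lower in colon trophocytes at -1.61 (-1.74 to -1.48), Foxf2 at -2.11 (-2.52 to -1.73) and Foxl1, with its 1 UMI against 120, at -4.95 (-10.27 to -2.45), while Hhip was higher at 1.80 (1.64 to 1.96). In the small intestine 3 of 8 were beyond 2-fold, all lower in trophocytes, against 15.4% of all genes: Hhip at -1.77 (-1.95 to -1.60), Foxf2 at -2.78 (-3.05 to -2.51) and Foxl1, with 1 UMI against 79, at -5.88 (-11.20 to -3.36). Ptch1 was lower there by less than 2-fold, at -0.70 (-0.78 to -0.62). Gli1 was level between the types in both libraries, at 0.00 (-0.23 to 0.22) and -0.03 (-0.21 to 0.15). The median over the 8 genes was -0.48 in the colon and -0.62 in the small intestine, against -0.12 and -0.24 over all genes.

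**Figure D2:**
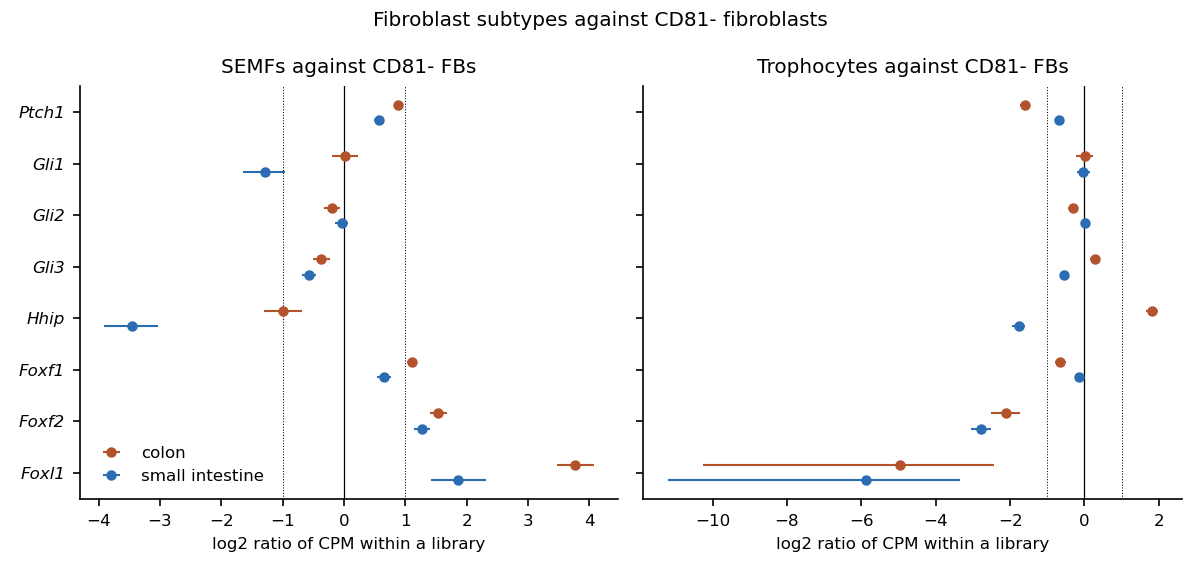
Log2 ratio of CPM of SEMFs (left) and of trophocytes (right) against CD81- FBs of the same library, for each of the 8 genes; points are ratios, bars exact 95% intervals, colours the libraries, and dotted lines mark 2-fold. Foxf2 and Foxl1 lie right of 2-fold in SEMFs and left of it in trophocytes in both libraries, and the trophocyte points of Hhip lie at 1.80 and -1.77.

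SMCs differed from the pooled fibroblast types most in Hhip. In the colon 3 of 8 genes were beyond 2-fold, all higher in SMCs, against 13.5% of all genes: Hhip at 6.12 (6.02 to 6.22), Foxf2 at 1.22 (0.90 to 1.53) and Foxl1 at 1.24 (0.65 to 1.77). Small intestine SMCs passed 2-fold in 4 of 8, all higher, against 10.9% of all genes: Hhip at 4.54 (4.46 to 4.63), Foxf2 at 1.10 (0.93 to 1.27), Foxl1 at 1.10 (0.44 to 1.71) and Ptch1 at 1.01 (0.92 to 1.10). The small intestine calls of Ptch1 and Foxl1 lay at the threshold, with values of 0.75 and 0.88 in cells thinned to 2000 UMIs. Gli2 and Gli3 of SMCs were within 2-fold of fibroblasts in both. This comparison was added after the levels had been seen.

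Within SMCs, cells with and without an Hhip UMI were compared. No other member was beyond 2-fold, of 7 in each library, against 6.10% of all genes in the colon (116 against 9 cells) and 5.25% in the small intestine (316 against 152 cells). Ptch1 was higher in Hhip-positive SMCs of the small intestine, at 0.69 (0.49 to 0.90), and Foxf2 at 0.53 (0.16 to 0.91). With cells thinned to 2000 UMIs both were beyond 2-fold, at 1.11 and 1.07. The same cells had more of the contractile genes: Myh11, smooth muscle myosin heavy chain, stood at 1958 against 724 CPM, and Cnn1, calponin, at 578 against 24.0 CPM. All 6 SMC markers were higher in Hhip-positive cells, with sums of 18098 against 8035 CPM. The 5 markers of CD81- FBs summed to 10005 CPM in Hhip-positive and 12043 CPM in Hhip-negative cells, with 0 of 5 higher in the positive ones, and Dcn, the fibroblast gene decorin, stood at 6018 and 10331 CPM. The 6 LEC markers summed to 229 and 21.8 CPM, with 6 of 6 higher in the positive cells, and the 6 BEC markers to 136 and 37.1 CPM, with 4 of 6 higher. The part of transcripts of other cell types in these values was not tested.

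**Figure D3:**
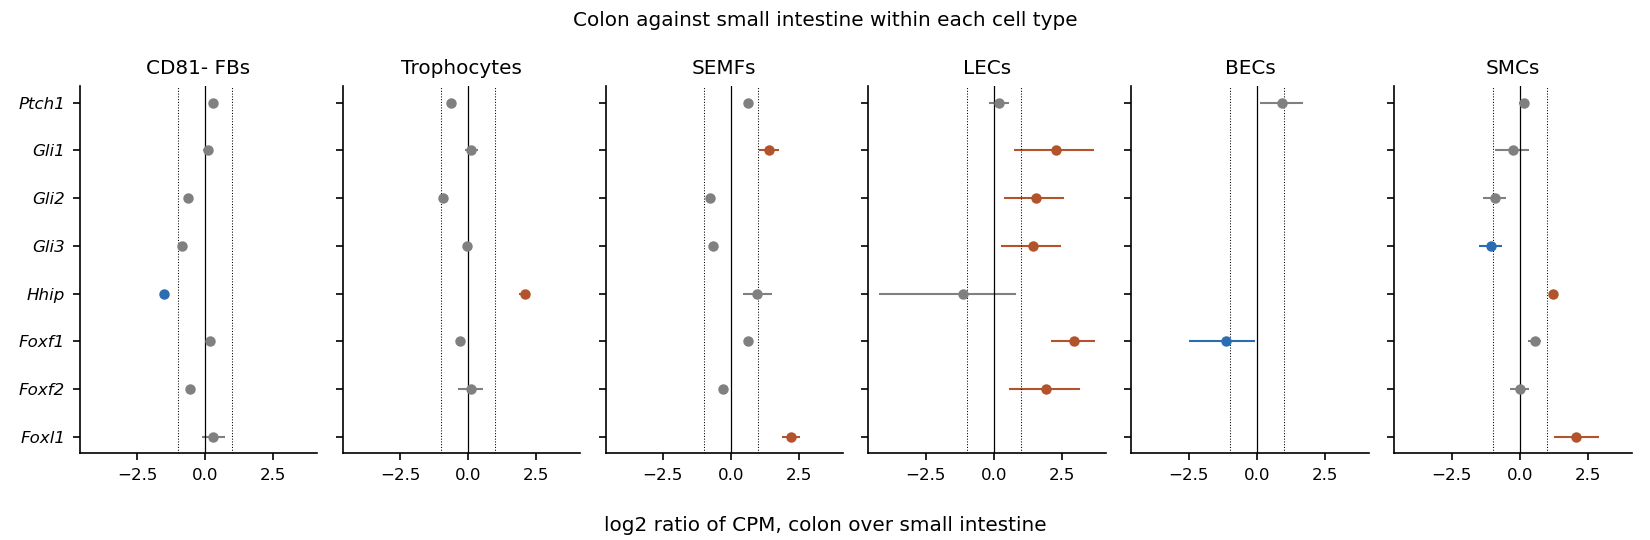
Log2 ratio of CPM, colon over small intestine, of each of the 8 genes within each cell type, for genes whose UMIs in the libraries summed to at least 20; points are ratios, bars exact 95% intervals, dotted lines mark 2-fold, and coloured points are beyond it. Hhip is lower in the colon in CD81- FBs (-1.49) and higher in trophocytes (2.08), and Foxl1 is higher in SEMFs (2.22) and SMCs (2.08).

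Between the tissues, Foxl1 was the member that stood out in fibroblasts. Taking the 3 fibroblast types together, 1 of 8 genes was beyond 2-fold, against 19.4% of all genes: Foxl1, with 15.9 CPM in colon and 4.15 CPM in small intestine fibroblasts (log2 ratio 1.94, 1.70 to 2.19). Ptch1 and Foxf1 were higher in the colon within 2-fold, at 0.47 (0.42 to 0.51) and 0.33 (0.28 to 0.39), and Gli2 and Gli3 lower, at -0.69 (-0.75 to -0.63) and -0.60 (-0.66 to -0.54). Foxf2, at -0.12, changed its sign relative to the median gene, taken over genes with at least 100 UMIs, at 0.06, as it did in SEMFs, from -0.29 to 0.04. The median over all tested genes was -0.15 in pooled fibroblasts, where the median over the 8 was 0.07. It ranged from -0.31 (SEMFs) to -0.09 (trophocytes) in the single types.

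The colon excess of Foxl1 lay in SEMFs and SMCs. In SEMFs 2 of 8 genes were beyond 2-fold, both higher in the colon, against 24.0% of all genes: Foxl1 at 2.22 (1.89 to 2.55) and Gli1 at 1.41 (1.04 to 1.79). In CD81- FBs, by contrast, Foxl1 was at 0.31 (-0.11 to 0.74), an interval that includes 0. Hhip of SEMFs, at 0.97 (0.46 to 1.51), was within 2-fold, but beyond it relative to that median gene, at 1.31. In SMCs 3 of 8 were beyond 2-fold, against 21.1% of all genes: Foxl1 at 2.08 (1.25 to 2.91, 29 against 25 UMIs) and Hhip at 1.21 (1.13 to 1.30) were higher in the colon and Gli3 was lower at -1.05 (-1.49 to -0.64). Relative to the median gene Gli3 lay within 2-fold, at -0.78. The SMC labels differed in other markers too: colon against small intestine, the 6 SMC markers summed to 22182 against 14808 CPM, the 5 markers of CD81- FBs to 1992 against 10671 CPM, and Dcn stood at 1556 against 7428 CPM. The part of this in the SMC differences was not tested. The SEMF labels differed in markers as well. Colon against small intestine, the 6 SEMF markers summed to 4859 against 8663 CPM and the 6 SMC markers to 2628 against 4896 CPM. The 5 markers of pericytes (cells around small vessels) summed to 154 against 1241 CPM, and Dcn stood at 1314 against 5630 CPM. The 5 markers of CD81- FBs went the other way, at 5640.5 against 2905 CPM. The part of this in the SEMF differences was not tested either.

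In CD81- FBs 1 of 8 genes was beyond 2-fold, against 21.1% of all genes, and in trophocytes 1 of 7 tested, against 16.5%, and in both it was Hhip. It was lower in the colon in CD81- FBs, at -1.49 (-1.63 to -1.36), and higher in the colon in trophocytes, at 2.08 (1.89 to 2.28). Gli2 of trophocytes was at -0.93 (-1.07 to -0.78) and passed 2-fold in cells thinned to 2000 UMIs, at -1.17. Foxl1 of trophocytes, with 1 UMI in each library, was not tested.

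The colon cells with Y-linked and with Xist transcripts, which come from different animals of the 1 library, allowed a look at differences within the colon. Each group may hold cells of 1 animal or several, so they are not replicates. Of the members tested (8 in each type, 7 in trophocytes, where Foxl1 had 0 UMIs) only Hhip was beyond 2-fold, in CD81- FBs, trophocytes and SEMFs, against 2.29%, 2.89% and 2.04% of all genes. In CD81- FBs the 1040 Y-linked cells had 15.8 CPM and the 1615 Xist cells 40.3 CPM, a log2 ratio of -1.35 (-1.66 to -1.05). In trophocytes the order was the other way, with 142 CPM in 274 cells and 63.6 CPM in 406 cells, a log2 ratio of 1.16 (0.90 to 1.43). In SEMFs it was at -1.47, but at -0.36 (-1.26 to 0.50) without the single cell rich in Hhip, which carried Xist. In SMCs no member was beyond 2-fold, against 3.86% of all genes, and Hhip stood at 2569 and 2547 CPM.

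The comparisons of Hhip between types and tissues therefore had different sizes in the 2 groups of colon cells. Trophocytes exceeded CD81- FBs by 3.17 (2.85 to 3.50) in Y-linked colon cells and by 0.66 (0.41 to 0.90) in Xist colon cells, the latter within 2-fold. Against the small intestine, CD81- FBs were at -2.29 and -0.94 and trophocytes at 2.65 and 1.49 in Y-linked and Xist cells. The direction was thus the same in both groups for each of these comparisons, and the size was not. Foxl1 of SEMFs, for comparison, was higher in the colon by 2.29 in Y-linked and 2.13 in Xist cells, and Gli1 of SEMFs by 1.45 and 1.52.

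**Figure D4:**
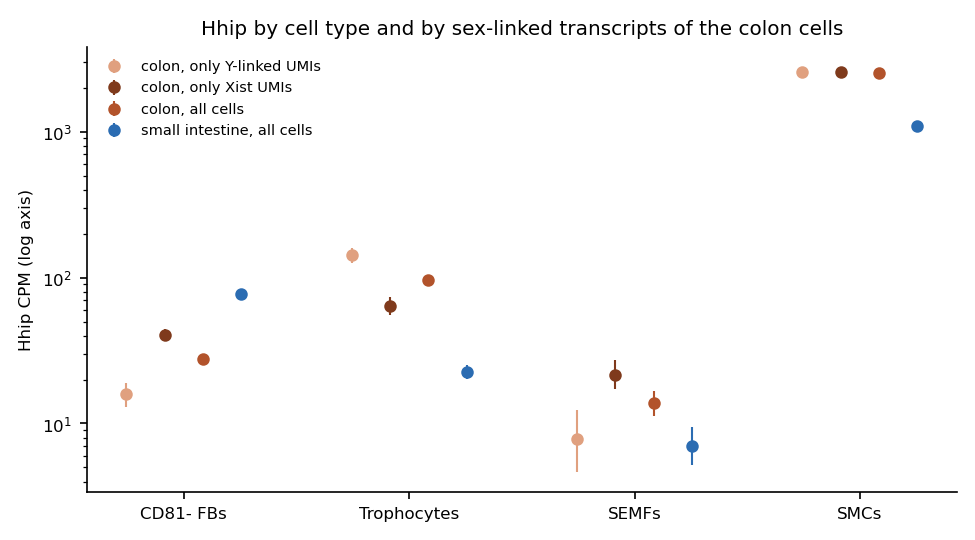
Hhip level (CPM, logarithmic axis) in the 3 fibroblast types and SMCs, for colon cells with only Y-linked UMIs, colon cells with only Xist UMIs, all colon cells and all small intestine cells; bars are exact 95% Poisson intervals. In CD81- FBs the points run from 15.8 to 77.4 CPM, in trophocytes from 22.6 to 142 CPM in the opposite order, and in SMCs the colon points stand at 2569 and 2547 CPM.

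In endothelium, which was measured with the fibroblast gene Dcn (decorin) as a gauge of transcripts from other cells, several members were near the level the gauge gave. Dcn of LECs was at 9.59% of its fibroblast level in the colon and 2.55% in the small intestine, and Dcn of BECs at 21.5% and 1.15%. In small intestine LECs Gli2 was at 2.26%, Gli3 at 2.45% and Foxf1 at 2.69% of their fibroblast levels, close to Dcn. Ptch1 was at 30.1%, with 660 UMIs where the Dcn rate gives 55.8. Dcn is a weaker gauge of transcripts from SEMFs and SMCs, where Ptch1 was highest. It stood at 5630 CPM in SEMFs, 7428 in SMCs and 25673 in trophocytes of the small intestine, and at 1314, 1556 and 19280 CPM in those of the colon.

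Ptch1 was also found in LECs without any Dcn UMI. In 1710 such cells of the small intestine it stood at 53.0 CPM (47.9 to 58.6), against 0.41 CPM for each of Gli1, Gli2 and Gli3 and 0.684 CPM for Foxf1. In 121 such colon LECs it stood at 51.4 CPM (34.2 to 74.3), with 1 UMI of Gli1, 2 of Gli2 and 0 of Gli3. Ptch1-positive LECs of the small intestine nevertheless carried more Dcn than the Ptch1-negative ones, 1264 against 137 CPM, and were deeper, with median UMIs of 5020 against 3938. They also had more summed markers of CD81- FBs (665 against 148 CPM, 5 of 5 higher), SEMFs (135 against 37.3, 6 of 6) and SMCs (282 against 83.1, 5 of 6). Their LEC markers summed to 19138 against 21213 CPM, with 1 of 6 higher. In colon LECs the CD81- FB, SEMF and SMC sums were 2193 against 429, 371 against 128 and 261 against 124 CPM, with 5 of 5, 6 of 6 and 3 of 6 higher. The part of transcripts from other cells in the Ptch1 of all LECs was not tested further.

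Foxf1 was the forkhead member of small intestine BECs. It stood at 56.7 CPM (45.0 to 70.6) in 364 BECs without a Dcn UMI and at 57.6 CPM in the 160 with one, with 0 UMIs of Foxf2 and Foxl1 in either. Ptch1 stood at 36.9 CPM (27.5 to 48.3) in BECs without Dcn. In colon BECs, of which there are 53, Foxf1 was at 26.0 CPM, below the 29.6 CPM that the Dcn rate gives, so a level above that gauge was not detectable at this depth. Between the tissues 1 of 2 members tested in BECs was beyond 2-fold, against 16.3% of all genes: Foxf1, lower in the colon at -1.14 (-2.48 to -0.05) on 7 colon UMIs, and at -0.84 relative to the median gene. Without the 6% highest doublet scores Foxf1 was at -1.08 (-2.55 to 0.09), which is not called. Ptch1, at 0.95, was called higher in the colon under both of these alternatives, at 1.24 relative to the median gene and 1.16 without those scores. In LECs 5 of 7 tested, all but Ptch1 and Hhip, were beyond 2-fold and higher in the colon, against 17.7% of all genes. They rest on 7 to 24 colon UMIs, Dcn was higher in the colon LECs as well, and the part of transcripts from other cells in these differences was not tested. With cells thinned to 2000 UMIs each had fewer than the 20 UMIs a call needs, and the log2 ratios were 5.02 for Gli1, 2.85 for Gli2 and 2.78 for Foxf1, with intervals above 0, and 1.56 for Gli3 and 0.63 for Foxf2, with intervals that included 0. Without the 6% highest doublet scores the count was 1. The ratios were then 0.81 (-4.68 to 3.77) for Gli1, 0.81 (-2.37 to 2.93) for Gli2 and 0.62 (-4.85 to 3.52) for Foxf2. The 121 colon LECs without a Dcn UMI held 2 UMIs of Foxf1 and 1 of Foxf2.

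**Figure D5:**
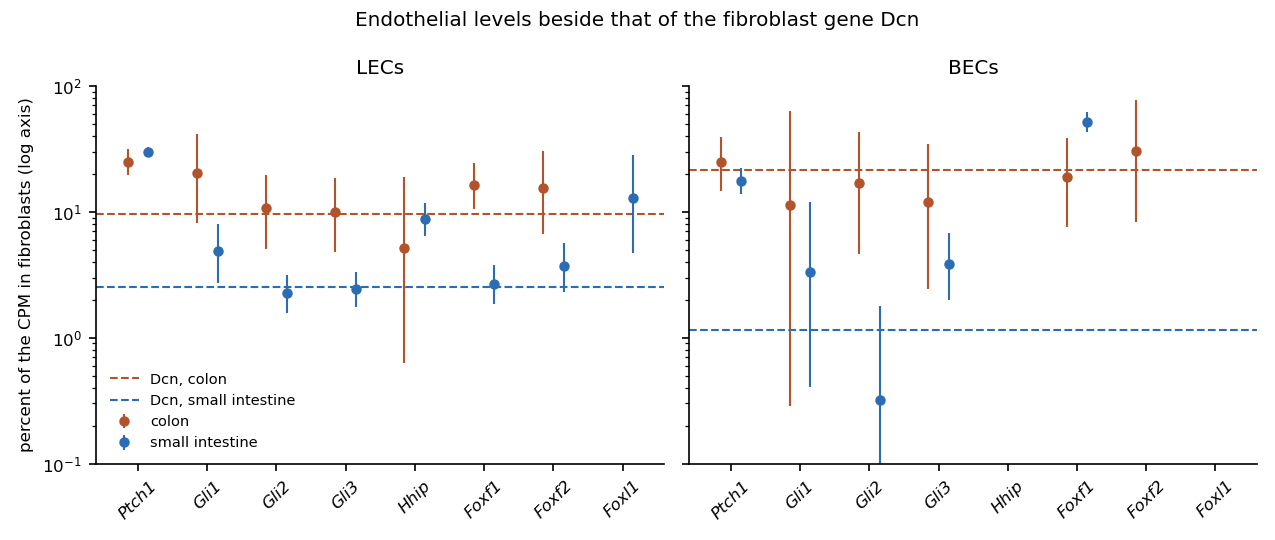
Level of each gene in LECs (left) and BECs (right) as percent of its level in the fibroblasts of the same library (logarithmic axis); points carry exact 95% Poisson intervals of the endothelial count, genes with 0 UMIs have no point, and dashed lines are the same percentage for Dcn. Ptch1 in small intestine LECs (30.1%) and Foxf1 in small intestine BECs (52.0%) lie far above their dashed lines.

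Within a type, cells with a Gli1 UMI were compared with cells without one. In CD81- FBs 0 of 7 members were beyond 2-fold in the colon (against 1.13% of all genes) and 0 of 7 in the small intestine (1.28%). In trophocytes, where Foxl1 had too few UMIs, 0 of 6 were in the colon (2.03%) and 0 of 6 in the small intestine (1.22%). Ptch1 was higher in Gli1-positive cells in every one of the 6 splits, within 2-fold, with log2 ratios of 0.13 to 0.35 and intervals that excluded 0. In SEMFs 1 of 7 was beyond 2-fold in the colon (against 1.62%) and 1 in the small intestine (2.67%), in both cases Hhip. The colon value of 1.81 turned to -0.55 (-1.70 to 0.44) without the single cell rich in Hhip, and the small intestine value of 1.99 (0.94 to 2.95) was 1.12 (-0.30 to 2.32) without its top cell. Gli1-positive SEMFs were deeper, with median UMIs of 7525 against 6152 in the colon and 6548 against 5390.5 in the small intestine.

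SEMFs with a Foxl1 UMI were compared with SEMFs without one. In each library 1 of 7 was beyond 2-fold, against 1.53% of all genes in the colon and 2.64% in the small intestine, again Hhip. It stood at 2.00 (1.37 to 2.66) in the colon, or 0.74 (-0.03 to 1.52) without the single cell, and at 1.62 (0.44 to 2.66) in the small intestine on 10 UMIs in 83 positive cells. Ptch1 was higher in Foxl1-positive SEMFs by 0.23 (0.13 to 0.32) and 0.41 (0.20 to 0.61), and Foxf2 by 0.26 (0.06 to 0.46) and 0.49 (0.18 to 0.79). The Gli1 intervals included 0 in both libraries. Foxl1-positive SEMFs were deeper, with median UMIs of 7453 against 5930 in the colon and 6132 against 5468 in the small intestine. In the small intestine they carried the 5 markers of CD81- FBs at a summed 4672 against 2745 CPM (3 of 5 higher) and the 5 immune markers at 423 against 69.5 CPM (3 of 5 higher), while in the colon the CD81- FB markers summed to 4907 against 6067 CPM and the 4 immune markers measured there to 8.78 against 10.8 CPM. Their part in the differences was not tested.

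The other parts of the pathway were read from gene lists. The epithelial ligands Shh and Ihh were not among the genes listed for either library, so no level is given. Dhh, another ligand of the family, had 21.9 CPM in small intestine BECs and at most 3.71 CPM elsewhere. Smo stood at 45.1 to 64.8 CPM in the mesenchymal types of the colon and 52.4 to 73.6 CPM in those of the small intestine.

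Several co-receptors, which help ligands reach Ptch1, were higher in trophocytes than in CD81- FBs in both libraries. Of 6 receptor and co-receptor genes tested, 4 were beyond 2-fold higher in trophocytes than in CD81- FBs in the colon and 4 in the small intestine, and 0 lower, against 16.7% and 15.4% of all genes beyond 2-fold in either direction: Cdon, Boc, Gas1 and Gpc3. Gpc3 is a glypican that binds Hedgehog ligands and restrains the pathway. Gas1 stood at 252 CPM in colon trophocytes and 4.57 CPM in colon CD81- FBs, a log2 ratio of 5.78 (5.51 to 6.07), and in the small intestine the 2 types had 220 and 30.5 CPM (2.85, 2.73 to 2.98). Cdon was higher in trophocytes by 4.97 (4.16 to 5.89) and 4.83 (3.67 to 6.30), on few UMIs in CD81- FBs. The list's median was 2.22 in the colon and 2.09 in the small intestine, against -0.12 and -0.24 over all genes. Ptch1, Foxf2 and Foxl1 were lower in the same cells (above). Trophocytes were not the highest type for all of these: Gas1 stood at 442 CPM in colon SMCs and 216 CPM in small intestine SMCs, and Cdon at 12.6 CPM in small intestine LECs, against 8.45 CPM in trophocytes there. Between tissues, Boc, Gas1 and Gpc3 of pooled fibroblasts were lower in the colon, at -1.40, -1.08 and -1.31, 3 of 6 against 19.4% of all genes.

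Genes of signal transduction and of the primary cilium were mostly within 2-fold. Between trophocytes and CD81- FBs, 2 of 17 transduction genes were beyond 2-fold in the colon and 2 in the small intestine, a share below the 16.7% and 15.4% of all genes. They were lower in trophocytes in both libraries: Kif7, the cilium kinesin that controls Gli processing, and Gpr161, a ciliary receptor that restrains the pathway. Of 13 cilium genes 0 were. Between SEMFs and CD81- FBs 0 of 17 transduction genes in the colon and 2 of 17 in the small intestine were beyond 2-fold, against 16.6% and 18.8% of all genes. Between the tissues 0 of 17 and 0 of 13 were in pooled fibroblasts, against 19.4% of all genes. Within trophocytes, SEMFs and SMCs the transduction genes beyond 2-fold, all lower in the colon, were 3 of 17, 2 of 17 and 3 of 15. The cilium genes, also lower, were 2 of 13 in each, against 16.5%, 24.0% and 21.1% of all genes. In CD81- FBs 0 of 17 and 1 of 13 were, the latter higher in the colon, against 21.1%. In LECs 2 of 14 transduction genes tested, Evc and Evc2, were higher in the colon and 2, Gsk3b and Btrc, lower. Of 13 cilium genes 0 were beyond 2-fold in LECs, against 17.7% of all genes.

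Of 16 further genes known to follow Hedgehog or Foxf factors in gut mesenchyme, SEMFs were higher than CD81- FBs in 6 of 15 tested in the colon and 4 in the small intestine, and lower in 3 and 4, against 16.6% and 18.8% of all genes beyond 2-fold in either direction. Bmp5, Bmp7, Wnt5a and Pdgfra were higher in both. Bmp5, Bmp7 and Pdgfra are also among the SEMF markers checked above, and the authors' full label calls SEMFs PDGFRa-high. In these counts they therefore add nothing separate from the label. Wnt5a, a Wnt ligand, had 421 CPM in SEMFs and 29.7 in CD81- FBs of the colon, and 209 and 23.5 in those of the small intestine. Bmp5 had 1215 and 276 CPM, and 1539 and 188 CPM. Sfrp1, Osr1 and Myocd were lower in SEMFs in both. In trophocytes 8 of 15 were lower than in CD81- FBs in each library, and 1 was higher, against 16.7% and 15.4% of all genes. Bmp4, a bone morphogenetic protein, was at -1.58 (-1.65 to -1.50) in colon trophocytes and stood at 220 against 441 CPM in the small intestine.

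The genomic neighbours of the forkhead members differed in where they were found. Fendrr, like Foxf1, was highest in SEMFs and SMCs: 175 CPM in SEMFs, 124 in SMCs, 65.0 in CD81- FBs and 30.2 in trophocytes of the colon, and 119, 120, 73.5 and 41.3 CPM in the small intestine. Foxc2, which lies between Foxf1 and Foxl1, was an LEC gene instead, at 13.1 CPM in colon and 25.7 CPM in small intestine LECs and at most 0.713 CPM in mesenchymal types. Foxc1, near Foxf2, stood at 34.7 CPM in colon LECs and 32.4 CPM in small intestine BECs. Foxq1, also near Foxf2, was highest in SMCs, at 29.8 and 7.84 CPM, and was higher in colon than small intestine fibroblasts at 2.49 (2.07 to 2.93).

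Genes most like each member were ranked by the correlation of log2(CPM + 1) over the 12 combinations of type and library among 9532 genes, as a description only, since the 12 points share 2 libraries and differ in depth. For Ptch1 they were Chsy3 (r = 0.976), Mpc2 and Rcn2. For Hhip they were Ube2o (r = 0.960), Cachd1 and Ank1, all highest in colon SMCs. For Gli1 they were Arhgef25 (r = 0.963), Rasl11b and Aspn, for Gli2 Pdzrn3 (r = 0.993), Cercam and Col16a1, and for Gli3 Fgf2 (r = 0.983), Smim1 and Tmem45a. For Foxf1 they were Arhgap28 (r = 0.964), Fendrr (r = 0.964) and Neo1. For Foxf2 they were Gm16833 (r = 0.968), 1700018A04Rik and Col27a1, and for Foxl1 Mapre3 (r = 0.929), Casq2 and Rab9. Among the members themselves, Gli2 with Gli3 (r = 0.96) and Ptch1 with Foxf2 (r = 0.95) were the most alike, and Gli3 with Foxl1 (r = 0.51) the least.

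In single cells the members were seen together only in part. The median number of the 8 genes detected was 3 in CD81- FBs and SEMFs, 2 in trophocytes and 4 in SMCs of both libraries, and 0 in LECs and BECs. At least 5 were detected in 33.6% of colon SMCs, 32.9% of small intestine SMCs, 21.6% of colon SEMFs, 7.16% of colon CD81- FBs and 3.89% of colon trophocytes. The small intestine shares were 15.8% in CD81- FBs, 11.1% in SEMFs and 3.55% in trophocytes. All 8 were detected in 2 colon SEMFs, 1 colon SMC and 1 small intestine SMC. These shares depend on depth per cell.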

How the data were processed

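Stromal cells of 1 colon and 1 small intestine library were analysed (16000 cells loaded each). The authors used Cell Ranger 7.1.0, Seurat 4 and build mm10, per the submitters' processing notes. The deposited raw tables hold UMI counts per gene and cell; the deposited normalized tables hold natural log values, which for the 8 members equalled ln(1 + 10000 × count / cell total). Cell types are the deposited labels. Counts were summed per type and library and divided by total UMIs (CPM). Intervals are exact Poisson, Clopper-Pearson or conditional binomial at 95%, computed with SciPy 1.17.1. Only the conditional binomial ones were tested, on simulated counts with known fold changes. Those counts were independent Poisson draws, the model the interval assumes, and leave out the clustering of UMIs in single cells. A count of 0 is read as up to 3 counts. Thinning drew 2000 UMIs per cell, leaving out 69 colon and 343 small intestine cells that were shallower. Scrublet (scanpy 1.11.5) called 1 of 6018 colon and 85 of 9359 small intestine cells doublets, so its calls were not used, and instead the 6% highest scores were left out as an alternative. The sources used here do not say if the authors had already taken doublets out. The members, gene lists and comparisons were chosen with earlier results of these data known. All 8 members are named, with the 3 genes most like each and list genes that passed 2-fold or were highest. A further rule limited likeness to genes of at least 20 CPM in 1 combination. Alternatives are in the closing section.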

Additional observations from a re-analysis of the deposited data

Results flagged for a closer look

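Some differences had opposite directions in 2 cell types or libraries. With 1 library per tissue these contrasts of effects were not tested. Hhip, colon over small intestine, had a log2 ratio of -1.49 in CD81- FBs but 2.08 in trophocytes and 1.21 in SMCs. Hhip of trophocytes against CD81- FBs was at 1.80 in the colon and -1.77 in the small intestine. Gli3 was at 1.43 in LECs (10 colon UMIs) and -1.05 in SMCs. Foxf1 was at 2.94 in LECs (24 colon UMIs) and -1.14 in BECs (7 colon UMIs), where Dcn stood at 9.59% and 21.5% of its colon fibroblast level.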

How the results depend on the processing

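No paired analysis was possible because each tissue has 1 library, so the groups share fewer than 2 replicate numbers, and no replicate could be left out. Of 167 counts of members under alternatives, 123 lay within 1.5 times of the reported count. Of 286 log2 ratios of called members under alternatives other than the natural log values, 239 kept their call and 5 reversed. All 5 were Hhip in colon SEMFs. In the Gli1 split it was -0.63 without the 6% highest doublet scores, -0.96 thinned to 2000 UMIs and -0.55 without the cell with the most Hhip UMIs. In the Foxl1 split it was -0.24 thinned and -0.75 with 2 or more UMIs for a positive cell. The colon SEMF counts of the Gli1 and Foxl1 splits were 0 under these 4 alternatives, and that of the Y-linked against Xist comparison was 0 without the doublet scores or the top cell. Small intestine SEMF counts were 0 in both splits without doublet scores and thinned (Hhip at 1.47 and 2.00 in the Gli1 split, against 1.99, and at 4.06 and 1.57 in the Foxl1 split, against 1.62, each on fewer than 20 UMIs), 0 in the Gli1 split without the top cell, and 3 in the Foxl1 split with 2 or more UMIs. With 2 or more UMIs the Gli1 split of small intestine CD81- FBs gave 2 and the Hhip split of small intestine SMCs 1, or 2 when thinned. Between tissues, CD81- FBs gave 0 with Xist cells, trophocytes 2 with Y-linked cells and 2 thinned, SMCs 1 thinned, LECs 1 with Y-linked cells, 1 without doublet scores and 0 thinned or with at least 100 UMIs, and BECs 0 with Y-linked or Xist cells and 2 with at least 5 UMIs. Small intestine SMCs against fibroblasts gave 2 thinned. The mean of the deposited natural log values gave 1 in the 3 SMC comparisons and 0 in the other 10 comparisons between tissues or types. Genes of low level cannot be called on that scale, since it asks for a 2-fold step in the mean of the log values. In colon SEMFs that mean was 0.328 for Foxl1 and 0.18 for Gli1, so neither could be called higher there. The cause of these changes was not tested.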
